A study of Mus musculus with 30 samples.

Results

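The cytosolic ribosomal protein genes were described in the hippocampus of BALB/c mice fed methylmercury (MeHg) with or without selenium. Members were the rows whose Ensembl identifier carried a symbol of the Rpl, Rps or Rplp series followed by a number, or the symbol Rpsa, without the pseudogenes marked -ps and without the Rps6k kinases. This gave 82 of the 21412 genes measured, of which 75 had a mean of at least 10 normalised counts over the 30 libraries. The members comprised 31 small subunit genes, 42 large subunit genes, 3 genes of the ribosomal stalk and 6 paralogs (Rpl3l, Rpl7l1, Rpl22l1, Rpl39l, Rps4y2 and Rps27l).

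The 30 libraries formed 6 groups of 5, and each was taken as 1 mouse. The study's methods describe the Ctr, LD and HD mice, males obtained young, around weaning. The selenium groups are not described there. Ctr mice received a purified feed with no mercury added, LD mice the same feed with 0.28 mg MeHg per kg and HD mice with 5 mg MeHg per kg, for 11 weeks. Se_Ctr, Se_LD and Se_HD are labelled as selenium alone, selenium with the low mercury dose and selenium with the high mercury dose, and the form and amount of selenium were not given in the sources used here. Nor was it given there whether the mercury doses and the feeding time of Se_LD and Se_HD were those of LD and HD. Each library came from 1 hippocampus RNA sample and held between 5768208 and 11510521 reads on genes, and values are normalised counts, that is, reads divided by a size factor of the library. The 9 neuron markers in the table were all present in every library (lowest value 1063, for Tubb3), for example Snap25, a synaptic vesicle fusion protein, at 18178 to 34214 normalised counts. Choroid plexus markers were uneven, and the summed level of the 8 genes ran from 276 normalised counts in Se_LD replicate 5 to 37683 in Se_LD replicate 4. In bulk tissue, a lower content of a cell type and less RNA per cell cannot be told apart.

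Ribosomal proteins are the protein part of the ribosome. The small subunit decodes the mRNA, the large subunit joins amino acids, and the stalk (Rplp0, Rplp1 and Rplp2) recruits the factors that drive elongation. Their mRNAs carry a 5′ terminal oligopyrimidine (TOP) tract, a C at the first base followed by a run of C and T, through which the kinase mTOR sets how strongly they are translated. In the brain these mRNAs are found in cell bodies and also in axons and dendrites.

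Sequences around the annotated start were available from RefSeq (GRCm38.p6) for 60 members, as 72 windows reaching from 250 bases before to 50 bases after a start. A C exactly at the annotated start with at least 4 further bases that were each C or T was present on the gene's strand in 13 of the 72 windows (18.1%), against 2.51% of the 32851 windows of all genes. When the C was allowed to lie from 5 bases before to 10 bases after the annotated start, 51.4% of the member windows and 24.3% of all windows held such a tract. Of the 13 genes, the 7 that are named in the comparisons or for their level are shown with 15 bases on each side of the start, the tract in capitals and the gene's strand 5′ to 3′.
Rplp2 (chr7:141447636-141447665, + strand): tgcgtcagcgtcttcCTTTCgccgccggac
Rpl15 (chr14:18270972-18271001, - strand): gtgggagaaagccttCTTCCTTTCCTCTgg
Rpl28 (chr7:4792950-4792979, + strand): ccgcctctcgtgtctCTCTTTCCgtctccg
Rpl35 (chr2:39005117-39005146, - strand): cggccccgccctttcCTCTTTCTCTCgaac
Rps6 (chr4:86857353-86857382, - strand): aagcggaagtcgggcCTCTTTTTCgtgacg
Rps21 (chr2:180257364-180257393, + strand): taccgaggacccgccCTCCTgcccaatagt
Rps27 (chr3:90213634-90213663, - strand): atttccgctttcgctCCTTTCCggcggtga
The tract was 13 bases long in Rpl15 and 5 bases long in Rplp2 and Rps21. The members outside these 13 genes had no match of this form at an annotated start, or no window in the table.

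Ribosomal protein genes have many processed copies in the mouse genome, and a read of 75 bases that fits several places cannot be given to one gene. In NCBIM37, the build of the authors' alignment, 78 of the 82 members had at least 1 exact 75-base copy of their transcript elsewhere, the median number of such other places was 5.5, and 46 members had fewer than 50% of their windows found once in the genome. Coding windows of 75 bases within an exon show this, with the number of places in the genome that hold the same 75 bases, the gene's own included.
Rps6 (chr4:86501816-86501890, - strand, 2 places): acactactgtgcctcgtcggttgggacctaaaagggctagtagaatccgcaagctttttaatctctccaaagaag
Rps27 (chr3:90016891-90016965, - strand, 3 places): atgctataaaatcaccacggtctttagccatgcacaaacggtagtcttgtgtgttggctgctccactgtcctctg
Rps3 (chr7:106628433-106628507, - strand, 1 place): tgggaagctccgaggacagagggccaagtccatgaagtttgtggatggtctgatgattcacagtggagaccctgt
Rps6, the phosphorylation target of the S6 kinases, had 5.47% of its windows unique and a mean of 15.8 normalised counts. Rps27 had 0.369% unique and a mean of 4.77. Rps3, which lines the mRNA entry channel, had 99.0% unique and a mean of 2479.

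Copies that differ by 1 or 2 bases are also shown, with the levels of the pseudogenes' own rows. How reads were divided between such rows was not tested. Rpl3, a core protein of the large subunit, and Rpl3-ps1 on chromosome X differed in the windows below at the base in capitals.
Rpl3 (chr15:79912938-79913012, - strand): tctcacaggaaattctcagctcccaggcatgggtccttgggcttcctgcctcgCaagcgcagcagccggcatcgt
Rpl3-ps1 (chrX:12779701-12779775, + strand): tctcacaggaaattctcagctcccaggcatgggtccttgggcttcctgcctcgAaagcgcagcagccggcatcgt
Of the 572 coding windows of Rpl3 that lie within 1 exon, 454 were identical in Rpl3-ps1. The Rpl3 row had a mean of 20.9 normalised counts and the Rpl3-ps1 row 196.6. For Rps2 and Rps2-ps13, also on chromosome X, 230 of 523 such windows were identical, and the pair below shows the window with the most differences, 2 bases.
Rps2 (chr17:24857230-24857304, + strand): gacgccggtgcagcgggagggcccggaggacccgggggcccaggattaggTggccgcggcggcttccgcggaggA
Rps2-ps13 (chrX:50251774-50251848, + strand): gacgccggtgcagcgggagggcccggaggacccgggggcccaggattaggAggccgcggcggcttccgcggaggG
The Rps2 row had a mean of 17.7 and the Rps2-ps13 row 170.6. Of 95 rows marked -ps, 19 had a mean of at least 10, and 3 lay above the row of their parent gene (Rpl3-ps1, Rps2-ps13 and Rpl23a-ps3). All -ps rows together summed to 882 normalised counts, against 42734 for the members.

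Most of these proteins stand once in each ribosome, yet their rows differed widely in level. Per kb of transcript, the standard subunit genes ran from 5.14 normalised counts for Rpl23a to 5132 for Rplp1. The 5 highest per kb were Rplp1 (5132), Rps15 (4767), Rps21 (3028), Rpl4 (2748) and Rpl32 (2420). The 5 lowest among all members were Rpl39l (1.20), Rpl3l (1.90), Rpl23a (5.14), Rpl29 (5.84) and Rpl26 (11.9). Rpl29 had exact copies of some window in 54 other places and 27.5% of its windows unique. The level per kb rose with the share of unique windows as a description over 76 standard subunit genes (Spearman's rho 0.60), which share libraries and depth and are not independent replicates. The 22 genes with under 20% unique windows had a median of 98.9 per kb and the 11 with at least 75% a median of 2232. How reads with several places were treated in the counting was not given in the sources used here, and a low row gives the reads assigned to it.

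**Figure D1:**
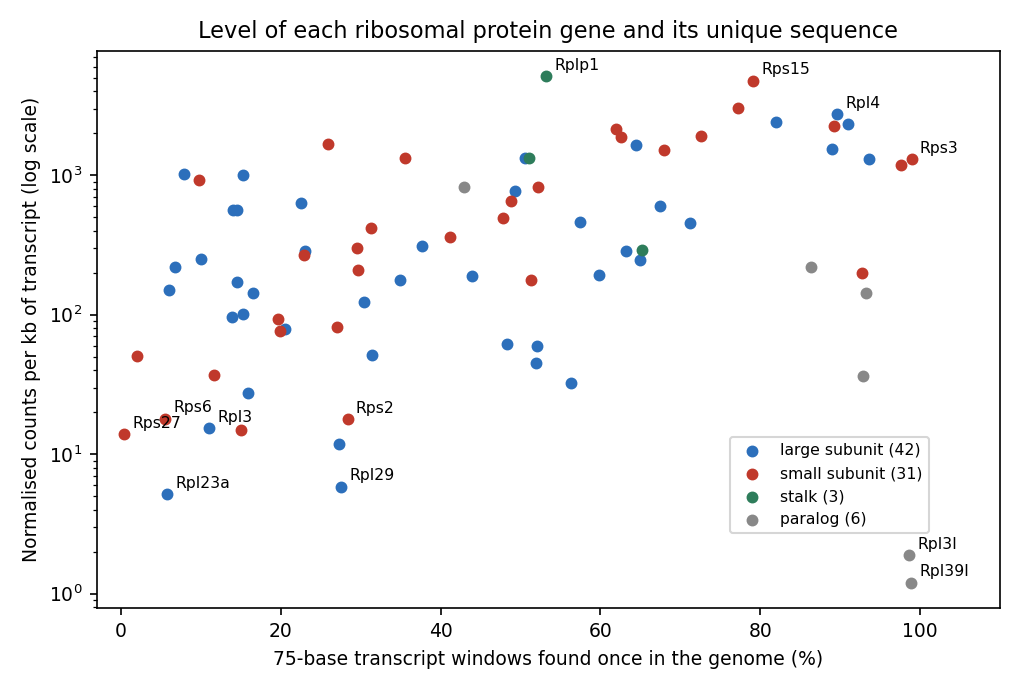
Normalised counts per kb of transcript on a log scale (mean of 30 libraries) against the percent of 75-base transcript windows found once in NCBIM37, 1 point per member and coloured by class. Rps27, Rps6 and Rpl3 lie low at the left, Rps3, Rps15 and Rpl4 high at the right, and the paralogs Rpl3l and Rpl39l are low although nearly all of their windows are unique.

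The paralogs differed from their standard partners in level. Rpl22l1 had 828 per kb beside 2320 for Rpl22, an RNA-binding protein of the large subunit. Rps27l had 220.5 per kb with 86.4% unique windows, beside 13.8 for Rps27, which had 0.369% unique windows. In this pair the paralog row was the higher. Rpl7l1 had 142.4 per kb beside 1322 for Rpl7. Rps4y2 had 36.6 per kb beside 1324 for Rps4x. Rpl3l, the form of Rpl3 found in heart and skeletal muscle, had between 0 and 7.67 normalised counts per library, and Rpl39l, the testis form of Rpl39, between 0 and 2.83.

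The share of all reads on genes that fell on the 82 members was between 0.376% and 0.580% in single mice, and the 95% exact (Clopper-Pearson) interval of a share spanned at most 0.0111 percentage points, which covers counting error only. The mean share was 0.475% ± 0.0572 (SD, n = 5) in Ctr, 0.481% ± 0.0733 in LD and 0.523% ± 0.0459 in HD. With selenium it was 0.480% ± 0.0561 in Se_Ctr, 0.482% ± 0.0259 in Se_LD and 0.490% ± 0.0396 in Se_HD. The ranges of the 6 groups overlapped. HD mice lay between 0.480% and 0.580% and Ctr mice between 0.391% and 0.528%, and without Ctr replicate 4, the lowest Ctr mouse, the Ctr mean was 0.496%.

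**Figure D2:**
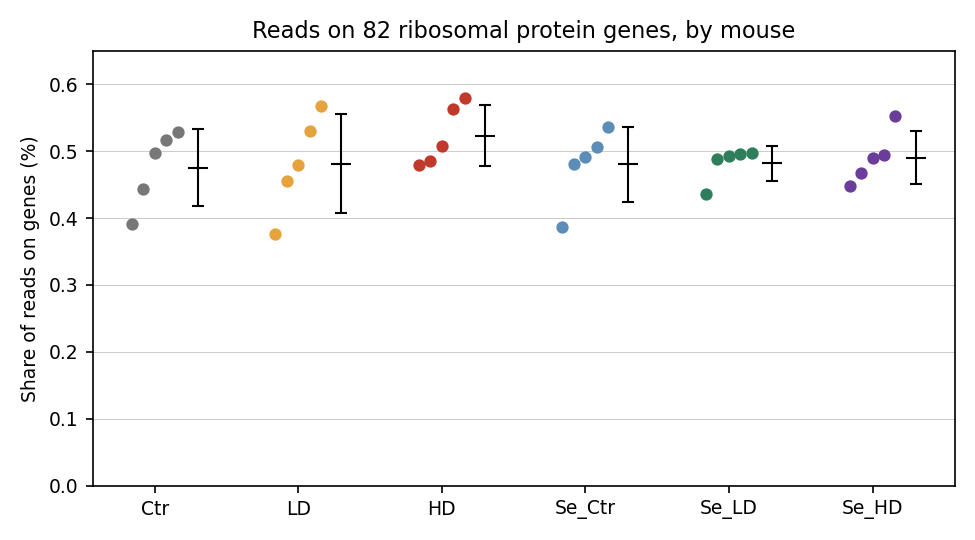
Percent of reads on genes that fell on the 82 ribosomal protein genes in each of 30 mice (points), with the group mean and SD (bar). HD has the highest mean (0.523%), single low mice in Ctr (0.391%), LD (0.376%) and Se_Ctr (0.387%) lie below all others, and the groups overlap.

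Single mice stood apart within their groups. In Ctr replicate 4, 49 of the 75 members had their lowest Ctr value, against 22.7% of the 14296 genes with a mean of at least 10. In LD replicate 5 this held for 40 of 75 members (all genes 25.0%) and in Se_Ctr replicate 4 for 59 of 75 (all genes 28.3%). In LD replicate 4, 45 of 75 members had their highest LD value (all genes 22.7%). The mean log2 difference of the 75 members from the Ctr mean was -0.26 in Ctr replicate 4, -0.21 in LD replicate 5 and -0.27 in Se_Ctr replicate 4. The highest values were 0.25 in HD replicate 5 and 0.24 in LD replicate 4. The nuclear genes of oxidative phosphorylation (OXPHOS), another group of abundant short mRNAs, had mean differences of -0.10, -0.15 and -0.28 in the 3 low mice and 0.41 in LD replicate 4. Genes of the mitochondrial genome stood at 0.41, 0.58 and -0.01 in the 3 low mice. Whether RNA quality, dissection or depth had a part in these mice was not tested, and their reads on genes were 8079666, 7375942 and 9976556. To a lesser degree, Se_HD replicate 2 held the lowest Se_HD value in 36 of 75 members (all genes 20.1%). Se_LD replicate 2 held the lowest Se_LD value in 32 of 75 (all genes 24.3%).

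**Figure D3:**
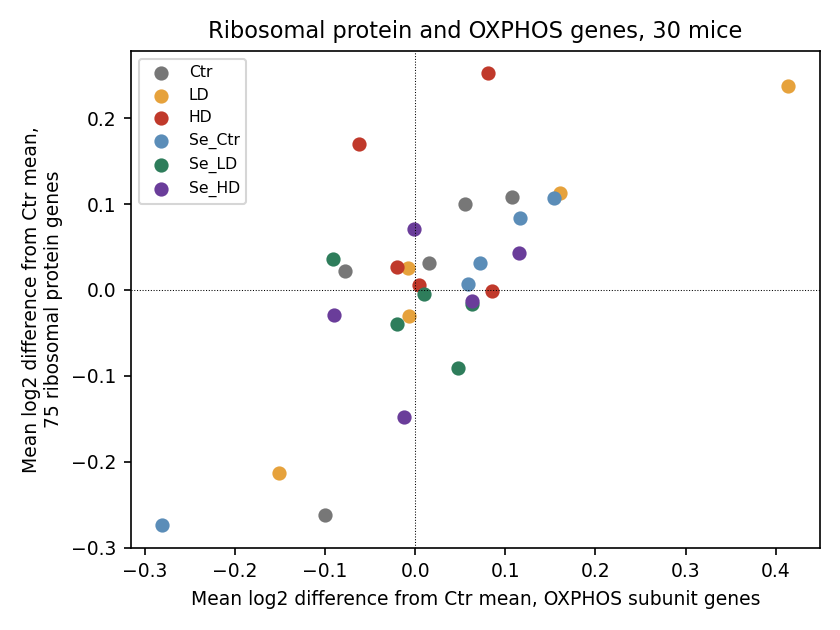
Mean log2 difference from the Ctr mean of the 75 ribosomal protein genes (vertical axis) and of the OXPHOS subunit genes (horizontal axis), 1 point per mouse. Ctr replicate 4, LD replicate 5 and Se_Ctr replicate 4 are low on both axes and LD replicate 4 is high on both, while HD replicates 2 and 5 are high in ribosomal protein genes alone.

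The within-group SD of a gene's log2 level had a median of 0.24 over the members and of 0.22 over all 14296 genes with a mean of at least 10. Among the 75 members it was smallest for Rpl22 (0.10), Rpl27a (0.13) and Rpl15 (0.13) and largest for Rps12 (0.54), Rps4y2 (0.49) and Rps13 (0.48). Rps12 had 2.03% of its windows unique and a mean of 26.0 normalised counts, and Rpl22 had 91.0% unique and a mean of 1100.

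In HD against Ctr, which asks what the high dose of MeHg did, 6 of the 82 members passed an unadjusted p under 0.05 with limma. This share of 7.32% stood beside 8.34% of all 20031 genes tested. Higher were Rpl23, Rplp0, Rps24, Rps9 and Rpl37a (5 of 82, beside 5.08% of genes higher), and lower was Rpl15 (1 of 82, beside 3.26% of genes lower). No member passed after Benjamini-Hochberg adjustment over all genes (0 of 82 with limma, lowest adjusted p = 0.345, beside 0.13% of all genes). The median log2 fold change of the 75 members was 0.11, beside -0.0021 over all genes with a mean of at least 10, and 58 of the 75 lay above 0. The small subunit genes lay above 0 in 26 of 29, with a median of 0.13, and the large subunit genes in 26 of 39, with a median of 0.085. The median depended on single mice: it was 0.036 without Ctr replicate 4 and 0.056 without HD replicate 5.

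**Figure D4:**
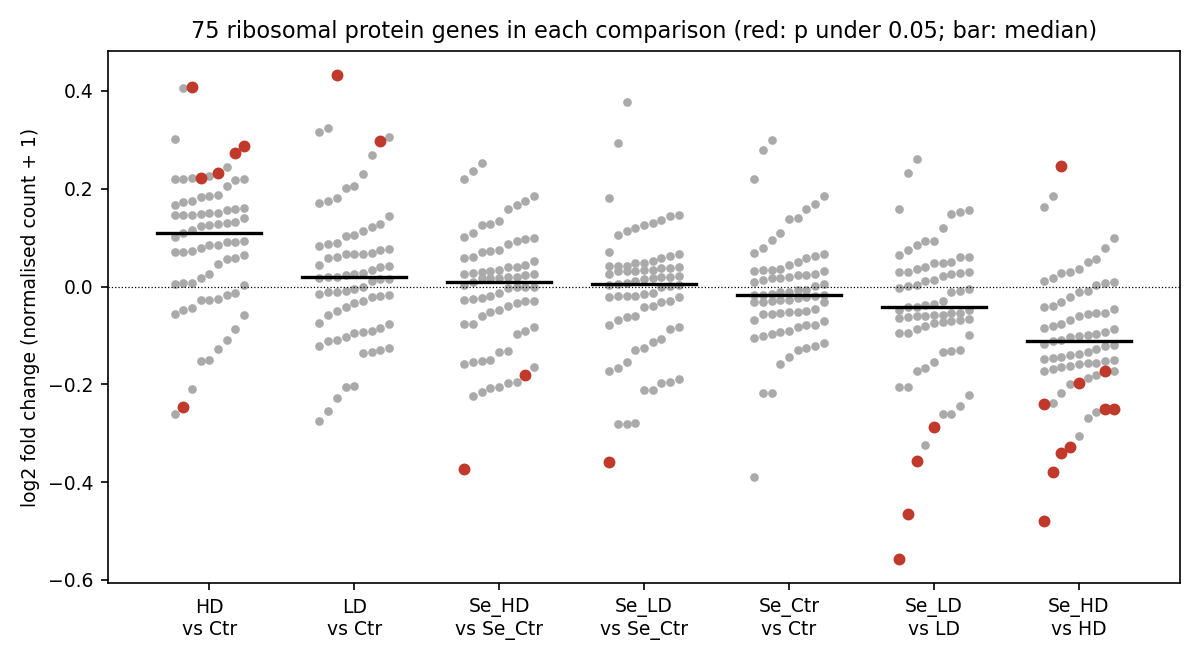
Log2 fold change (normalised count plus 1) of the 75 members with a mean of at least 10 in the 7 comparisons of 2 groups, with genes of unadjusted p under 0.05 in red and the median as a bar. The medians lie at 0.11 in HD vs Ctr and at -0.11 in Se_HD vs HD, which share the HD mice, and within 0.05 of 0 in the other comparisons.

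Rpl23, a large subunit protein at the face joined to the small subunit, had normalised counts of 1561, 1562, 1605, 1704 and 1867 in Ctr and 1821, 1851, 1860, 2196 and 2457 in HD. The 2 highest HD mice lay above all Ctr mice, and the groups overlapped. The log2 fold change was 0.29 ± 0.0995 (SE), with unadjusted p = 0.0088, adjusted p = 0.345 and exact two-sided permutation p = 0.0317. It stayed under 0.05 unadjusted when any of the 15 libraries was left out.

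Rplp0, the base of the stalk, had 248, 330, 339, 390 and 404 normalised counts in Ctr and 350, 398, 407, 439 and 730 in HD. A single mouse, HD replicate 2, stood far above the others. Its log2 fold change was 0.41 ± 0.16 (SE), with p = 0.0200, adjusted p = 0.462 and exact permutation p = 0.0556, and p rose to 0.083 without that mouse. Rplp2, a partner of Rplp1 in the stalk, had a log2 fold change of 0.41 ± 0.22, with p = 0.073 and exact permutation p = 0.0397. Rplp1 had 0.094 ± 0.15, with p = 0.528 and exact permutation p = 0.50.

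Rpl15, a large subunit protein, had 458, 468, 482, 484 and 489 normalised counts in Ctr and 331, 367, 430, 442 and 448 in HD. Each of the 5 HD mice was lower than the lowest Ctr mouse. Rpl15 was the only one of the 75 members whose groups did not overlap in this comparison, and 1.91% of the 14296 genes had no overlap. Rpl15 had a log2 fold change of -0.25 ± 0.11 (SE), with p = 0.0339, adjusted p = 0.537 and exact permutation p = 0.00794, the smallest p that 5 against 5 can give. The unadjusted limma p was above 0.05 when reads were scaled to the total, without the trend and in 5 of the 15 fits without a library. The Rpl15 row had 14.6% unique windows and copies in 17 other places.

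Rps24 rose from 1190 ± 71.5 (SD, n = 5) to 1394 ± 161 normalised counts. Rps9 rose from 1353 ± 180 to 1583 ± 148, and Rpl37a from 245 ± 46.8 to 293 ± 26.4. Rps24 and Rps9 are small subunit proteins and Rpl37a a zinc-binding protein of the large subunit. Rps24 had a log2 fold change of 0.22 ± 0.092 with exact permutation p = 0.0159, Rps9 0.23 ± 0.11 with exact permutation p = 0.0556 and Rpl37a 0.27 ± 0.13 with exact permutation p = 0.0873. Rpl37a passed in only 5 of the 15 fits without a library and under 6 of 12 other settings. Without Ctr replicate 4 only 1 of the 82 members passed (Rpl23), beside 6.94% of all genes in that fit. Without HD replicate 2 there were 2 (all genes 6.37%), and without HD replicate 1 there were 3 (all genes 8.61%). Without Ctr replicate 2 there were 10 of 82, or 12.2%, beside 9.47% of all genes, and 9 of the 10 were higher, beside 5.78% of genes higher.

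Among members chosen for their roles, Rps3 had 2939 ± 757 (SD, n = 5) normalised counts in HD and 2359 ± 388 in Ctr, and its highest value was 4280, in HD replicate 1. Rpl5 and Rpl11, which hold back the p53 ligase Mdm2 when ribosome assembly is disturbed, had log2 fold changes of 0.13 ± 0.18 (SE) and -0.056 ± 0.23. Rpsa, also known as a laminin receptor, had 0.056 ± 0.14. Rps27a, made as a fusion with ubiquitin, had 0.15 ± 0.23. Rps6 had 0.16 ± 0.27 and Rpl3 0.0081 ± 0.28, both on the low rows described above.

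Markers of several cell types moved in the same comparison. All 10 microglia markers passed higher in HD (median log2 fold change 0.80) and 4 of 8 astrocyte markers did, among them Gfap. The 8 astrocyte markers had a median of 0.30. The 8 choroid plexus markers had a median of 1.48 with 1 passing higher, Folr1 (0 with edgeR or DESeq2), and their summed level overlapped, at 775 to 31208 normalised counts in Ctr and 6975 to 29313 in HD. The 9 neuron markers had a median of -0.13 with 1 passing lower, Gad1, the enzyme that makes GABA, which went from 2748 ± 197 (SD, n = 5) to 2006 ± 165. Of 5 nuclear noncoding RNAs 1 was higher, Neat1 (log2 fold change 1.04 ± 0.22 SE), with 2473 to 5120 normalised counts in Ctr and 6086 to 13746 in HD, and the list median was 0.026. None of the 7 oligodendrocyte and 7 endothelium markers passed (0 with limma, edgeR or DESeq2 at an unadjusted p under 0.05). The summed level of the microglia markers was 2654 to 2924 normalised counts in Ctr and 3388 to 7843 in HD. HD replicates 2 and 5, with the highest microglia sums (7843 and 6885), were also the HD mice with the highest mean difference of the ribosomal protein genes (0.17 and 0.25). The part of cell composition in the ribosomal protein values was not tested.

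In LD against Ctr, 2 of 82 members (2.44%) passed, both higher, beside 3.01% of all 20031 genes (1.67% higher), and the groups overlapped for all 75 members (0.329% of genes had no overlap). Rps29, a small zinc-binding protein of the small subunit, had 604, 605, 608, 634 and 679 normalised counts in Ctr and 672, 714, 725, 799 and 964 in LD. All but 1 of the LD mice lay above every Ctr mouse. The log2 fold change was 0.30 ± 0.11 (SE), with p = 0.0121, adjusted p = 0.999 and exact permutation p = 0.0159. Rpl28, a large subunit protein of eukaryotes, had 64.2, 74.9, 78.9, 83.4 and 90.8 in Ctr and 84.6, 91.8, 106, 118 and 134 in LD. Its log2 fold change was 0.43 ± 0.20 (SE), with p = 0.0444 and exact permutation p = 0.0159, and p was above 0.05 in 8 of the 15 fits without a library. The median over the 75 members was 0.019, and it was -0.072 without Ctr replicate 4 and -0.031 without LD replicate 4. Rps29 was lost in none of the 15 fits without a library. Both genes that passed, Rps29 and Rpl28, had fewer than 50% of their windows found once in the genome. Neither gene passed in HD, where Rps29 had a log2 fold change of 0.091 and Rpl28 0.14, and no member passed in the same direction at both doses. Without LD replicate 5, 4 members (4.94%) passed, all higher, beside 3.56% of all genes and 1.80% higher. Of 79 OXPHOS subunit genes tested in LD against Ctr, 2 were higher (Ndufa12 and Cox4i2, beside 1.67% of genes higher). Their list median was 0.094, and the 9 genes of the mitochondrial genome had a median of 0.22. The part of these shifts in the ribosomal protein values was not tested.

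On selenium, Se_HD and Se_LD were compared with Se_Ctr. In Se_HD against Se_Ctr 3 of 81 members tested (3.70%) passed beside 4.19% of 19679 genes, namely Rps16 and Rpl27a lower (beside 1.76% of genes lower) and Rpl3l higher (beside 2.43% higher). In Se_LD against Se_Ctr 1 of 81 passed, Rps16, which was lower, beside 3.31% of genes (1.51% lower). Rps16, a small subunit protein close to the site where tRNA is bound, had 67.4, 69.9, 70.3, 73.1 and 76.1 normalised counts in Se_Ctr. It had 47.2, 49.5, 54.2, 63.6 and 64.6 in Se_LD and 47.8, 50.8, 55.0, 56.7 and 65.6 in Se_HD. All 10 dosed mice lay below all 5 Se_Ctr mice. Its log2 fold change was -0.36 ± 0.13 (SE) in Se_LD and -0.37 ± 0.13 in Se_HD, with exact permutation p = 0.00794 in both, the smallest possible. Adjusted p was above 0.99 in both comparisons, which share the Se_Ctr mice.

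Rps16 was the only member of 75 without overlap in either comparison, beside 0.476% of genes in Se_LD against Se_Ctr and 0.881% in Se_HD against Se_Ctr. The Rps16 row had fewer than 50% unique windows. Its values were 45.9 to 70.3 in Ctr, 37.3 to 69.6 in LD and 44.4 to 87.5 in HD, and the Se_Ctr values overlapped those of all 3 groups without selenium. Without selenium the log2 fold change of Rps16 was -0.084 ± 0.21 at the low dose and 0.079 ± 0.21 at the high dose. The difference of these effects between the diets was -0.28 ± 0.24 (SE) at the low dose and -0.45 ± 0.24 at the high dose, and neither passed in limma's interaction test (adjusted p = 0.998 and 0.997). Se_Ctr against Ctr gave a log2 fold change of 0.28 ± 0.17 for Rps16, with exact permutation p = 0.0397 and adjusted p = 1 in limma.

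Rpl27a had 196, 239, 246, 247 and 248 normalised counts in Se_Ctr and 192, 197, 204, 219 and 223 in Se_HD, and the lowest Se_Ctr mouse was replicate 4. Its log2 fold change was -0.18 ± 0.081 (SE), with p = 0.0375 and exact permutation p = 0.0714. It passed in 8 of the 15 fits without a library and under 10 of 12 other settings. The medians over the 75 members were 0.0088 in Se_HD and 0.0053 in Se_LD. Without Se_Ctr replicate 4 they were -0.054 and -0.063, and 7 members (8.64%) passed in each comparison. Of these 6 were lower in Se_HD, where 5.38% of all genes passed in that fit and 2.79% were lower, and 7 in Se_LD, where 4.75% passed and 2.41% were lower. Without Se_HD replicate 2, 5 members passed in Se_HD (6.17%, beside 4.62% of genes), and without Se_LD replicate 5, 4 passed in Se_LD (4.94%, beside 4.09%). Among cell type markers, 2 of 8 astrocyte markers passed higher in Se_HD with limma, Gfap (log2 fold change 0.51 ± 0.12 SE) and S100b (0.17 ± 0.073). The astrocyte list median was 0.066. Of 7 endothelium markers Flt1 passed higher at both doses, and of 10 microglia markers C1qa passed lower in Se_LD. None passed after adjustment, and the part of these markers was not tested.

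Groups with and without selenium that carry the same dose label were compared in 1 fit of all 30 libraries, and whether their mercury exposure was equal was not given in the sources used here. In Se_Ctr against Ctr only Rpl3l passed (1 of 82, lower, beside 4.00% of 21383 genes, 2.22% lower), with 1.21, 2.83, 3.40, 5.63 and 7.67 normalised counts in Ctr and 0, 0, 0.896, 0.95 and 3.46 in Se_Ctr. These are 0 to a few reads per library, and no fold is given. The median over the 75 members was -0.017, and it was 0.054 without Se_Ctr replicate 4 and -0.074 without Ctr replicate 4. The groups overlapped for all 75 members, and 0.720% of genes had no overlap.

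In Se_LD against LD 4 of 82 members (4.88%) passed, all lower, beside 2.86% of genes (1.50% lower). The groups overlapped for all 75 members here too, and 0.357% of genes had no overlap. The median over the 75 members was -0.043, and it was 0.019 without LD replicate 4. Rps29 fell from 775 ± 115 (SD, n = 5) to 602 ± 53.3 normalised counts, Rpl28 from 107 ± 20.1 to 76.7 ± 10.4, Rps2 from 21.4 ± 5.73 to 13.9 ± 1.69 and Rplp1 from 2737 ± 700 to 2210 ± 360. Rps29 had a log2 fold change of -0.36 ± 0.11 (SE) with exact permutation p = 0.0159, and Rpl28 -0.47 ± 0.18 with exact permutation p = 0.0238. Rplp1 passed in 20 of the 30 fits without a library and under 4 of 11 other settings. Without LD replicate 4, which held the highest LD value in 45 of 75 members, 2 members passed (2.44%, beside 2.90% of genes). In the same comparison 5 of 80 OXPHOS subunit genes were lower (Ndufc2, Cox4i2, Ndufa12, Uqcr11 and Ndufb5), with a list median of -0.060. The 9 genes of the mitochondrial genome had a median of -0.28, and 1 passed with limma (mt-Nd2, lower), 6 with edgeR and 7 with DESeq2. The part of these shifts in the ribosomal protein values was not tested. The LD mice are those in which Rps29 and Rpl28 were higher than in Ctr. The difference of the low dose effect between the diets was -0.38 ± 0.16 (SE) for Rps29 and -0.60 ± 0.25 for Rpl28. Both passed unadjusted in limma's interaction test, and neither passed after adjustment (adjusted p = 0.998).

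In Se_HD against HD 10 of 82 members (12.2%) passed, beside 8.38% of all 21383 genes. Of these 9 were lower, beside 5.28% of genes lower, and Rpl15 was higher, beside 3.10% of genes higher. The lower genes were Rpl35, Rpl23, Rpl22, Rpl10a, Rpl5, Rps9, Rps27l, Rps14 and Rpl36a. None passed after adjustment (0 of 82 with limma, lowest adjusted p = 0.214, beside 0.327% of all genes). The median over the 75 members was -0.11, beside 0.0072 over all genes, and 15 of the 75 lay above 0. It ranged from -0.14 to -0.064 when 1 library was left out, with -0.070 without HD replicate 5, -0.072 without HD replicate 2 and -0.064 without Se_HD replicate 2. The HD mice are shared with the comparison of HD with Ctr, so that the 2 medians of opposite sign rest in part on the same 5 mice.

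Rpl35, a large subunit protein at the exit of the peptide tunnel, had 256, 273, 285, 313 and 399 normalised counts in HD and 182, 189, 231, 242 and 244 in Se_HD. All Se_HD mice lay below all HD mice. The log2 fold change was -0.48 ± 0.14 (SE), with p = 0.00219, adjusted p = 0.214 and exact permutation p = 0.00794. It stayed under 0.05 unadjusted when any of the 30 libraries was left out. Rpl35 had 254 to 296 in Ctr, and its log2 fold change in HD against Ctr was 0.17 ± 0.14. Of its exons, 68.3% lie antisense to Wdr38, and the strand setting of the counting was not given in the sources used here.

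Rpl22 had 1132, 1140, 1241, 1299 and 1303 normalised counts in HD and 1044, 1080, 1085, 1086 and 1116 in Se_HD. Rpl23 had 1569, 1661, 1716, 1803 and 1818 in Se_HD. For Rpl22 and Rpl23, too, every Se_HD mouse lay below every HD mouse. These 3 genes were the members without overlap (3 of 75), beside 1.77% of genes. The log2 fold change was -0.17 ± 0.073 (SE) for Rpl22 and -0.24 ± 0.10 for Rpl23, with exact permutation p = 0.00794 for both. Rpl15 had 446, 460, 469, 487 and 519 in Se_HD, close to its Ctr values, and its log2 fold change against HD was 0.25 ± 0.089 with exact permutation p = 0.0159.

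The other lower members were moderate in size. The small subunit protein Rps14 went from 1271 ± 141 (SD, n = 5) in HD to 1066 ± 104 in Se_HD, Rps9 from 1583 ± 148 to 1377 ± 67.5 and Rpl36a from 556 ± 44.3 to 467 ± 40.8. Rpl10a went from 97.8 ± 18.5 to 75.3 ± 16.5 and Rpl5, whose exons lie in part (46.6%) antisense to Fam69a, from 105 ± 25.5 to 82.2 ± 4.81. Rps27l, a paralog induced by p53, went from 134 ± 41.6 to 102 ± 10.6, and its highest value, 206, was in HD replicate 2. Without that mouse 4 of the 82 members passed (4.88%, beside 7.39% of all genes), without Se_HD replicate 2 there were 3 (3.66%, beside 7.26%), and without HD replicate 1 there were 4 (4.88%, beside 7.48%). Scaling to total reads left 4 (4.88%, beside 8.01%). Without HD replicate 3 there were 13 (15.9%, beside 10.6% of all genes). Without HD replicate 5, Se_HD replicate 1 or Se_HD replicate 3 there were 6 (7.32%), beside 7.93%, 7.45% and 7.76% of all genes, and without Se_HD replicate 5 there were 5 (6.10%, beside 6.83%). Of the 10 microglia markers 9 were lower in Se_HD than in HD (median log2 fold change -0.78), as were 5 of 8 astrocyte markers (median -0.31), among them Gfap (limma adjusted p = 0.00117). Of the 9 neuron markers 1 was higher, Gad1 (median 0.12, Gad1 adjusted p = 0.0160 with limma), and none of the 8 choroid plexus markers passed (0 with limma, edgeR or DESeq2 at an unadjusted p under 0.05, median 0.28). Of the 5 nuclear noncoding RNAs Neat1 and Malat1 were lower (-0.67 ± 0.24 and -0.44 ± 0.21 SE, list median -0.25). The part of these markers and RNAs was not tested.

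**Figure D5:**
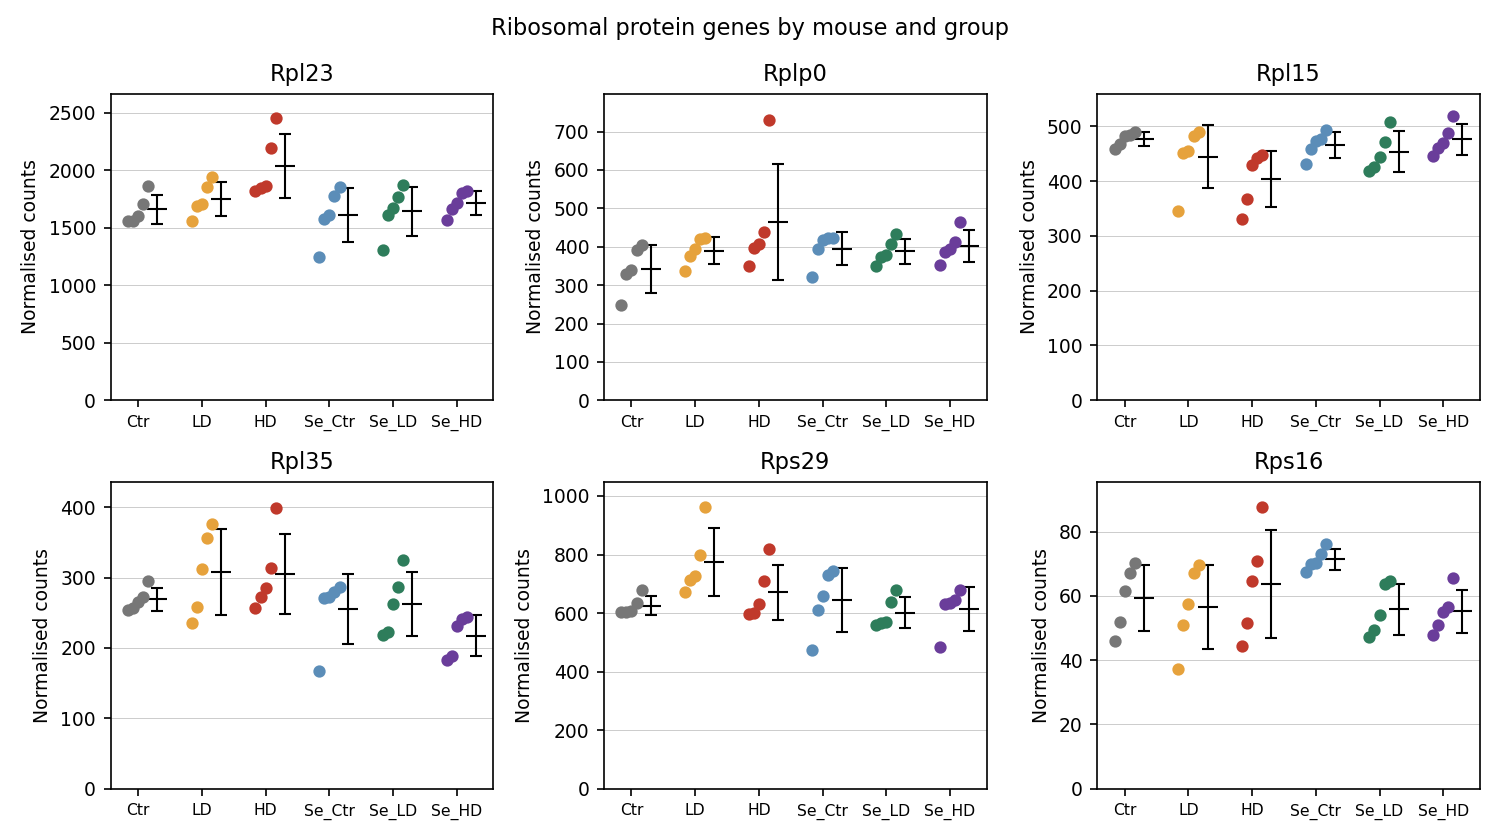
Normalised counts of 6 members in each of 30 mice (points), with group means and SD (bars), on axes that start at 0. Rpl15 is low and Rpl23 high in HD, Rpl35 lies lower in Se_HD than in HD, Rps29 is high in LD, the 5 Se_Ctr mice lie above all Se_LD and Se_HD mice for Rps16, and 1 HD mouse stands apart for Rplp0.

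The difference of the high dose effect between the diets passed for 2 of 82 members (2.44%), both more positive with selenium, beside 4.77% of genes (1.82% in that direction). These were Rpl15, with a difference of 0.28 ± 0.13 (SE), and Rpl3l, whose values were 0 to 7.67 normalised counts. The median difference over the 75 members was -0.10, and it was -0.035 without Ctr replicate 4. Without Se_Ctr replicate 4, 9 members (11.0%) passed beside 5.10% of genes, and 7 of them were lower, beside 3.18% of genes. At the low dose 3 of 82 passed (3.66%, beside 3.75% of genes), namely Rpl3l (1.87% of genes in its direction) and, in the other direction, Rps29 and Rpl28 (1.88% of genes). In the F test over all 6 groups 4 members passed (4.88%, beside 6.91% of genes), namely Rpl35, Rpl23, Rps29 and Rpl22, and no member passed after adjustment (0 of 82, lowest adjusted p = 0.526, beside 0.444% of genes).

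Other genes of ribosome production were taken from lists, and their counts stand beside the 5.08% of all genes that were higher in HD against Ctr and the 5.28% that were lower in Se_HD against HD. Of 25 translation factors and other genes with a TOP tract, 1 was higher in HD against Ctr, Vim, an intermediate filament protein. Vim and Hnrnpa1 were lower in Se_HD against HD, and the list's medians were 0.034 and -0.039. Hnrnpa1 had 557 ± 284 (SD, n = 5) normalised counts in HD, a wide spread, and 372 ± 76.3 in Se_HD. Vim had 967 ± 1447 (SD, n = 5) normalised counts in HD and 232 ± 27.3 in Ctr. A single mouse, HD replicate 2, had 3548, and the other HD mice had 190 to 440. Without that mouse the HD mean of Vim was 322 ± 130 (SD, n = 4), and Vim passed in neither comparison (log2 fold changes of 0.38 ± 0.21 SE and -0.33 ± 0.21).

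Of 75 mitochondrial ribosomal proteins, 2 were higher in HD against Ctr, Mrpl51 and Mrpl49, with a list median of 0.0011, and 1 was lower in Se_HD against HD, Mrps21 (log2 fold change -0.28 ± 0.13 SE). Of 50 genes of ribosome assembly, 2 were lower in Se_HD against HD, Pes1, a factor of large subunit assembly (-0.19 ± 0.082), and Ncl, the nucleolar protein nucleolin, which went from 4968 ± 1377 (SD, n = 5) to 3889 ± 451 normalised counts. The highest Ncl value in HD was 7373, in replicate 1, and without that mouse Ncl did not pass (-0.17 ± 0.12). In the list of 22 genes of mTOR and TOP control, Eef2k, the kinase that slows elongation, passed higher in HD against Ctr (log2 fold change 0.28 ± 0.12 SE) and lower in Se_HD against HD (-0.29 ± 0.10). Of 20 p53 targets, 1 passed in Se_HD against HD, Bax, which was lower (-0.40 ± 0.17). None of these genes passed after adjustment with limma, the lowest adjusted p being 0.362 for Eef2k in Se_HD against HD, and with edgeR and with DESeq2 1 gene of the TOP list passed in that comparison. Of the 50 assembly genes 0 passed in HD against Ctr at an unadjusted p under 0.05 with limma, edgeR or DESeq2.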

How the data were processed

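RNA of hippocampus from 30 BALB/c mice (5 in each of 6 groups, as labelled) was sequenced as stranded RNA libraries with single reads of 75 bases. Per the labels and the study's methods, the authors trimmed reads (Trim Galore 0.4.2, FastQC), aligned them (HISAT2, NCBIM37), counted them per gene (featureCounts) and scaled them with DESeq2; settings for strand and for reads with several places were not given in the sources used here. The deposited signal values are read counts divided by a size factor, and whole reads were recovered for 100% of values (within 0.01 of a whole number). The files held 21412 genes, 21326 with a symbol, and libraries held 5768208 to 11510521 reads on genes. That depth gives a 95% exact interval of at most 0.0111 percentage points for the share of reads on the members.

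The members and gene lists were chosen with earlier results of these data known. The main test was limma 3.58.1 (R 4.3.3, trend) on log2(normalised count + 1), two-sided, over all genes with a sum of at least 10 normalised counts in the fit: 15 libraries for doses within a diet, 30 for the rest. A gene passed at an unadjusted p under 0.05; Benjamini-Hochberg adjustment ran over all genes tested. The limma test was tested on simulated data. For single members, exact two-sided permutation tests of mean log2 values (5 against 5, smallest p 0.00794) were added. Medians and counts without overlap cover the 75 members with a mean of at least 10. Genes to name were picked, per comparison, by lowest p and by highest and lowest fold change. Added were a set chosen for role, paralogs with their partners, and the extremes of level per kb and of within-group SD. From each list came genes that passed. Not all genes picked are given in the text, and Rps28, Rps18, Rpl17, Rpl30, Rpl21 and Rpl10 are among those left out. Alternatives were the pseudocount, the filter, other scalings (total reads, TMM, quantile), limma without trend, edgeR 4.0.16 and DESeq2 1.42.0 on recovered reads, sets of 6 consecutive library numbers as a block, and each library left out. Medians over members with at least 50% unique windows, and shares with each library left out, were chosen after seeing the data. Unique windows were counted by exact match of 75-base transcript windows on both strands of NCBIM37. Each library is taken as 1 mouse. The study's methods describe 5 hippocampus samples a group for Ctr, LD and HD and leave out the selenium groups, for which the same is assumed. The labels name no animal, and p-values measure the spread between these samples. Chi-square per degree of freedom within groups was 3.13 to 62.0 over 60 pairs, so that no pair agreed within sampling noise.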

Additional observations from a re-analysis of the deposited data

Results flagged for a closer look

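The ratio of the gap between the most extreme mouse and its neighbour to the range of the group was examined in 126 groups of 5. These covered 20 members and the share of reads on ribosomal protein genes, and 14 lay above the critical value of 0.710. The chance count of 6.3 holds only for independent tests. It cannot be set against the 14, since the members share mice and were chosen with earlier results known. Several flags fell on the same mice. Se_Ctr replicate 4 was low in Rpl35 (ratio 0.868), Rpl27a (0.815) and Rplp0 (0.721). Se_LD replicate 2 was low in the share of reads on ribosomal protein genes (0.861), in Rps9 (0.815) and in Rpl22 (0.738). HD replicate 2 was high in Rplp0 (0.765) and in Rps27l (0.713). The others were Rps29 in Se_HD replicate 2 (0.752), Rpl5 in Ctr replicate 2 (0.748), Rpl15 in LD replicate 2 (0.735), Rps9 in Ctr replicate 4 (0.726), Rpl3l in Se_Ctr replicate 2 (0.725) and Rps24 in LD replicate 4 (0.713).

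Before adjustment, the mercury effect differed between the diets in limma's interaction test for 2 of 82 members at the high dose (2.44%, beside 4.77% of all genes) and for 3 of 82 at the low dose (3.66%, beside 3.75%), so that the members' share was not above that of all genes. For Rpl3l the unadjusted limma p was 0.0171 at the high dose and 0.0140 at the low dose. It was 0.0340 for Rpl15 at the high dose, and 0.0216 for Rps29 and 0.0229 for Rpl28 at the low dose. Adjusted p was 0.997 at the high dose and 0.998 at the low dose. Rpl3l had 0 to 7.67 normalised counts in every library, so that its values rest on a few reads.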

How the results depend on the processing

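Of 668 repeats of the counts, medians and shares, 600 stayed within 1.5 times the count or within the spread, and of 2177 repeats for named members 2038 kept direction and side of the threshold. The number of members that passed was 3 without trend in HD against Ctr (3.66%, beside 7.96% of all genes in that fit) and 1 in LD against Ctr with a pseudocount of 10, quantile scaling or no trend (1.22%, beside 2.77%, 3.05% and 3.44%). It was 3 with library sets as a block (3.70%, beside 3.47%) and 2 with edgeR (2.47%, beside 3.45%) in Se_LD against Se_Ctr, 0 in Se_Ctr against Ctr with a mean filter of 10 (beside 3.17%), since Rpl3l was not tested, and 4 by total reads in Se_HD against HD (4.88%, beside 8.01%). For the high dose difference between diets it was 1 by total reads (1.22%, beside 4.38%) and 4 with TMM, edgeR or DESeq2 (4.88%, beside 4.76%, 5.24% and 4.32%). In the F test it was 2 by total reads or without trend (2.44%, beside 6.51% and 6.88%). Leaving out 1 library gave 1 to 10 members in HD against Ctr, 1 to 4 in LD against Ctr, 1 to 7 in Se_HD and in Se_LD against Se_Ctr, 1 to 2 in Se_Ctr against Ctr, 2 to 5 in Se_LD against LD and 3 to 13 in Se_HD against HD. For the differences between diets it gave 1 to 9 at the high and 1 to 4 at the low dose, and 2 to 6 in the F test. Without mitochondrial genome genes and Malat1 in the base, the share was 0.544% in Ctr, 0.553% in LD, 0.597% in HD, 0.545% in Se_Ctr, 0.542% in Se_LD and 0.554% in Se_HD. Rps13, a low row (21.6), turned from -0.27 to 0.087 in LD against Ctr and from 0.26 to -0.10 in Se_LD against LD without LD replicate 2, and its ranges over left-out libraries were -0.48 to 0.087 and -0.10 to 0.46. Apart from fewer genes or samples, the cause was not tested. Replicate numbers here only name libraries and pair nothing, and the library sets were the only block fitted. The sets, each holding 1 library of every group, moved no other count of members by over 1.5 times, and the labels do not tie a set to a batch.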

Other observations

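Single genes of ribosome assembly also passed in other comparisons, at an unadjusted p under 0.05 with limma and with adjusted p above 0.99 in each. Of the 50 genes 1 passed in LD against Ctr (beside 3.01% of all genes), 3 in Se_LD against Se_Ctr (3.31%), 1 in Se_Ctr against Ctr (4.00%), 1 in Se_LD against LD (2.86%) and 1 for the high dose difference between diets (4.77%). Polr1e, a subunit of RNA polymerase I, was higher in LD against Ctr (log2 fold change 0.38 ± 0.17 SE). In Se_LD against Se_Ctr, Pno1 and Nip7, factors of small and large subunit assembly, were lower (-0.33 ± 0.13 and -0.18 ± 0.072), and Rrn3, the initiation factor of RNA polymerase I, was higher (0.13 ± 0.060). Rptor, the mTORC1 scaffold, and the only one of 22 genes of mTOR and TOP control that passed there, was higher (0.19 ± 0.081). Nip7 was higher in Se_Ctr against Ctr (0.20 ± 0.095) and its high dose difference between diets was -0.28 ± 0.13, and Polr1c, a subunit shared by RNA polymerases I and III, was lower in Se_LD against LD (-0.29 ± 0.14). Tpt1, the only one of 25 TOP genes that passed in Se_LD against LD, was lower (-0.25 ± 0.12). Of the 75 mitochondrial ribosomal proteins 1 passed in Se_HD against Se_Ctr, Mrpl37 (-0.20 ± 0.094, beside 4.19% of all genes), and 2 in Se_LD against Se_Ctr, Mrpl39 and Mrpl23 (-0.30 ± 0.11 and -0.87 ± 0.34). In Se_Ctr against Ctr Mrpl49 and Mrpl39 were higher (0.19 ± 0.087 and 0.27 ± 0.13), and Mrps12 was lower in Se_LD against LD (-0.45 ± 0.20). The difference between diets passed for Mrpl49 and Eef2k at the high dose (-0.30 ± 0.12 and -0.37 ± 0.15) and for Mrpl39 at the low dose (-0.53 ± 0.19, beside 3.75% of all genes). The list medians lay between -0.072 and 0.037 for the 50 assembly genes over the comparisons of 2 groups and the differences between diets.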
